A study of Rattus norvegicus with 17 samples.

Results

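The 7 genes described here, Tph1, Asmt, Aanat, Crx, Bsx, Sag and Gngt1, are genes of the pineal gland, and they were read by symbol from a table of 34322 genes in 17 rat hippocampal RNA-seq libraries. They were chosen because 1 library of the ad libitum group, AD replicate 6, held them at levels not seen in the other 16 libraries. The values of that library, and the comparisons that include the AD group, are therefore a description of these genes and not a test of them. The study asked how ethanol before birth changes gene expression in the adolescent hippocampus of Long-Evans rats. The dams of the ethanol group (ET, 5 libraries) drank a liquid diet with 6.7% ethanol, which supplied 36% of the calories, the dams of the pair-fed group (PF, 6 libraries) received the liquid diet without ethanol in yoked amounts, and the dams of the ad libitum group (AD, 6 libraries) ate standard chow freely. Ethanol and liquid diet ended on gestational day 20, and the offspring were 36 to 38 days old at tissue collection. Each group came from 1 litter, so diet and litter cannot be told apart. The left hippocampus was used except in ET replicate 2, PF replicate 1, PF replicate 6 and AD replicate 3, where the right one was labelled. AD replicate 6 was labelled as the left hippocampus of a female. The hour of tissue collection is not given in the sources used here.

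The pineal gland lies at the midline behind the hippocampi and converts tryptophan to serotonin and then to melatonin. Its cells share an origin with retinal photoreceptors and keep much of the machinery of photoreception, including homeodomain transcription factors and proteins of the phototransduction cascade. In the rat, sympathetic release of noradrenaline at night raises cyclic AMP in these cells and induces Aanat, while by day Aanat transcripts are scarce.

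The regulatory sequence of the 7 genes is shown first, because all 7 had their highest value in the same library, although Aanat was low there, with 5 counts. Crx is a homeodomain protein that recognizes sequences with the core TAATCC or TAATCT, and TGACGTCA is the full cyclic AMP response element. These letters were searched on both strands in the window from 250 bases before to 50 bases after each RefSeq start, on the assembly GRCr8, which is not the assembly mRatBN7.2 on which the reads were counted. TGACGTCA is its own reverse complement, and TAATCC and TAATCT differ in the last base and were counted apart. The 5 windows with a match are printed 5′ to 3′ on the strand of the gene, with the matched letters in capitals. A motif on the opposite strand reads as GGATTA or AGATTA.
Crx, chr1:85681803-85682102, minus strand: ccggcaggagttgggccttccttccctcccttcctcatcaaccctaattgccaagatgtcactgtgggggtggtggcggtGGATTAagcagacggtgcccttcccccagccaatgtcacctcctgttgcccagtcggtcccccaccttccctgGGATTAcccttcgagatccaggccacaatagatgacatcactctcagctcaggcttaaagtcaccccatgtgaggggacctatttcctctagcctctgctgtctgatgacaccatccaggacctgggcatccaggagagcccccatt
Aanat, chr10:102326073-102326372, plus strand: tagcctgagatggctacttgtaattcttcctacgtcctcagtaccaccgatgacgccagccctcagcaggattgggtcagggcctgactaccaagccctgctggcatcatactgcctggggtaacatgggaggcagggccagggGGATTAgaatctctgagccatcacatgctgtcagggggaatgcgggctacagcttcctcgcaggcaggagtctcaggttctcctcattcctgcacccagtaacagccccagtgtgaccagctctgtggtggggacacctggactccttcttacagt
Gngt1, chr4:32960695-32960994, plus strand: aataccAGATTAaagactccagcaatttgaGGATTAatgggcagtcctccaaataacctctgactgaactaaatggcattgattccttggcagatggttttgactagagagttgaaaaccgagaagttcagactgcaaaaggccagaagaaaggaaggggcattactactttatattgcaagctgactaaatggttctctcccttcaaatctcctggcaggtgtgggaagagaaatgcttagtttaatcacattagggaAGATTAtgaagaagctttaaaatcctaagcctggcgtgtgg
Tph1, chr1:106314579-106314878, minus strand: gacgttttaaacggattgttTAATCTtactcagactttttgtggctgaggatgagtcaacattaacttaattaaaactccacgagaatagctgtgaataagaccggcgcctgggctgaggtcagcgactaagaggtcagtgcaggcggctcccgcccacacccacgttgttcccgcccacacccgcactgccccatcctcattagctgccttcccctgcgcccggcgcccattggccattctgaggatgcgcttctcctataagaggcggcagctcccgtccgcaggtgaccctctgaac
Asmt, chr12:21423287-21423586, minus strand: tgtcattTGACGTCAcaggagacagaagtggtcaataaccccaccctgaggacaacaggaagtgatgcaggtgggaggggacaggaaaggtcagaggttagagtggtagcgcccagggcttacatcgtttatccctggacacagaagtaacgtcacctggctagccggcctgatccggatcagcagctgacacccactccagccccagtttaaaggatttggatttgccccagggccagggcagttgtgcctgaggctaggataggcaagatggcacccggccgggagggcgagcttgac

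TAATCC was present in 3 of the 7 windows, once in Aanat at position -106 from the start, once in Gngt1 at -220, and at both -170 and -97 in the gene for Crx itself. It was present in 1952 of all 27457 RefSeq windows (7.109%). TAATCT was present in 2 of the 7, in Tph1 at -230 and in Gngt1 at -244 and 10, against 8.457% of all windows. Either motif was found in 4 of the 7 windows and in 14.85% of all windows. TGACGTCA was present in Asmt alone among the 7, at -243, and in 1.912% of all windows. The windows of Bsx (chr8:50150954-50151253, plus strand) and Sag (chr9:95916947-95917246, plus strand) held none of these letters. A match is a description of the sequence and does not show that a protein binds there, and windows without a match say only that these letters are absent from them.

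Between 10853947 and 17498392 fragments were counted per library, and AD replicate 6 was near the low end with 11392019. Levels below are counts scaled by TMM, a normalization that equalizes the bulk of genes between libraries, to the mean effective library size. Libraries of 1 group differed by more than sampling noise in each of 40 pairs, with a smallest chi-square per gene of 7.856. Y-linked genes and LOC100911498, which is high where Y-linked counts are near 0, fitted the labelled sex in 15 of 17 libraries. The exceptions were AD replicate 1 and AD replicate 2, and AD replicate 6 matched its label. P-values measure the spread between these libraries, which within a group come from littermates. In bulk tissue, more cells of a type and more RNA per cell cannot be told apart.

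All 7 genes had their highest level in AD replicate 6. Of all 17207 genes with at least 10 counts in some library, 9.54% were highest in AD replicate 6, and 9.45% were lowest there. Among the other 16 libraries, the number of genes highest in the library ranged from 408 to 2780, so that being the highest library was by itself common. A level at least 5 times that of the highest other library was not. It was met by 72 of 15616 genes with at least 10 counts in AD replicate 6 (0.461%), by 1 gene in ET replicate 2 and by 0 genes in each of the other 15 libraries. Of the 7 genes, 6 met it, and Aanat, with 5 counts, was under the minimum. In this ratio, levels under a floor of 3 counts were set to 3. The genes just inside the limit were Casz1 (5.389) and Alox15 (5.333), and those just outside were Ca3 (4.919) and Hsbp1l1 (4.672).

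**Figure D1:**
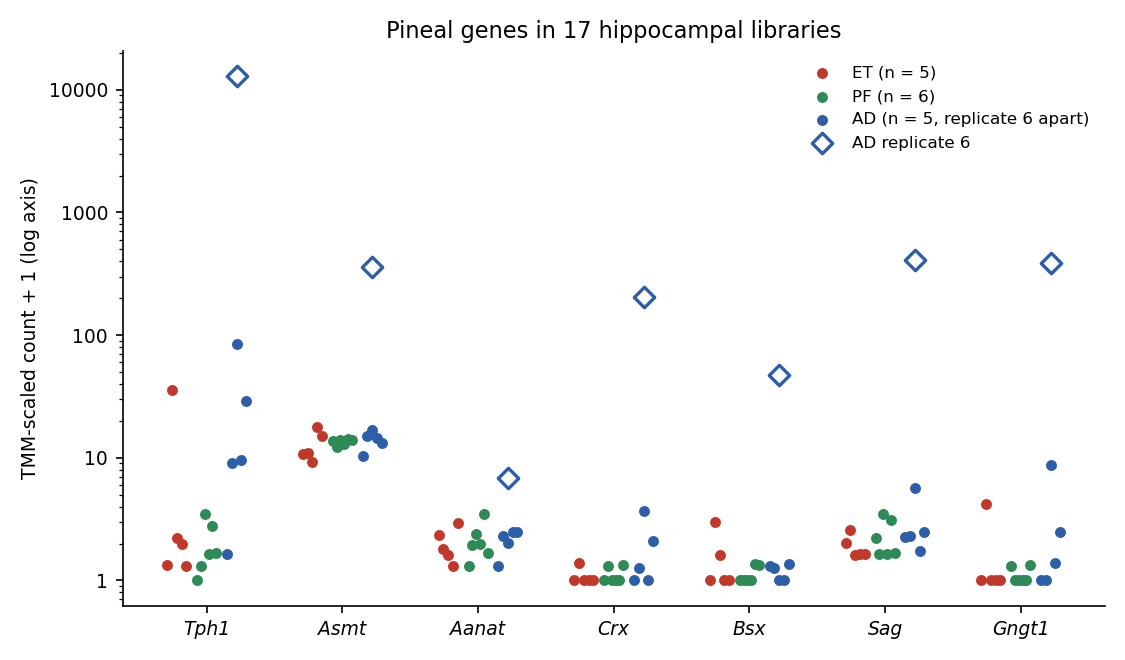
TMM-scaled counts plus 1, on a log axis, of the 7 pineal genes in each of the 17 libraries, where circles are single libraries of the ET (red), PF (green) and AD (blue) groups and open diamonds are AD replicate 6. AD replicate 6 is above all other libraries for every gene, from 5.817 for Aanat to 12962 for Tph1, and the other libraries of the 3 groups overlap.

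Among the enzymes of melatonin synthesis, Tph1, which hydroxylates tryptophan in the first step of serotonin synthesis and is the form used in the pineal gland and the gut, had the widest range. Its level was 12962 in AD replicate 6. The other AD libraries had 0.638 (replicate 1), 8.075 (replicate 2), 83.8 (replicate 3), 8.633 (replicate 4) and 27.9 (replicate 5). In the ET group, replicate 2 had 34.4, and the other 4 libraries had from 0.321 to 1.224. The 6 PF libraries had from 0 to 2.462, with a median of 0.656. AD replicate 6 was therefore 154.7 times AD replicate 3, the next in order, and 4 of the 5 other AD libraries and ET replicate 2 were above the remaining libraries. In fragments summed over the 3 technical replicates, AD replicate 6 held 33423 Tph1 fragments. AD replicate 3 held 251 (95% Poisson interval 221 to 284), ET replicate 2 held 86 (68.8 to 106.2) and PF replicate 1 held 0. Tph1 alone took 0.0978% of all counted fragments in AD replicate 6 (95% Wilson interval 0.0968% to 0.0989%) and at most 0.000626% in any other library. For a count of 0 the upper limit of this interval is 3.689 fragments. These intervals and floors cover counting error only, since fragments were counted without molecular identifiers.

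Asmt, the methyltransferase that makes melatonin from N-acetylserotonin, had a level of 359.5 in AD replicate 6. In the other libraries it was low but present throughout, at 8.259 to 16.8 in the ET group (lowest in replicate 3), 11.1 to 13.4 in the PF group (median 12.8) and 9.25 to 15.7 in the other 5 AD libraries (median 13.5). Outside AD replicate 6 the libraries of the 3 groups overlapped, and Asmt was the 1 gene of the 7 that was above the floor in every library. The highest other library was ET replicate 4, and the ratio of AD replicate 6 to it was 21.4.

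Aanat, which acetylates serotonin and whose transcripts in the rat pineal gland are abundant at night, stayed near the floor. Its level was 5.817 in AD replicate 6, from 15 fragments over the 3 technical replicates (95% Poisson interval 8.39 to 24.7). The highest of the other libraries was PF animal 11f6 at 2.461, from 7 fragments (2.81 to 14.4), and the lowest was PF replicate 1 at 0.3095. The interval of AD replicate 6 overlapped those of 10 of the other libraries, PF animal 11f6 among them, and lay above those of the 6 libraries with 1 or 2 fragments. AD replicate 6 had 33423 fragments of Tph1 and 927 of Asmt beside these 15 of Aanat. The 3 counts come from 1 library, but transcript lengths were not used, so they are not levels that can be compared between genes.

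The 2 transcription factors were close to absent elsewhere. Crx, the cone-rod homeobox factor that activates photoreceptor and pineal genes, had a level of 204.0 in AD replicate 6, from 526 fragments (95% Poisson interval 482 to 573). Of the other libraries, AD replicate 3 had 2.671, AD replicate 5 had 1.116, and the rest had from 0 to 0.4. All 16 were thus under the floor of 3 counts. Bsx, a homeobox factor of the pineal gland and hypothalamus, had a level of 46.5 in AD replicate 6, from 120 fragments (99.5 to 143.5). ET replicate 2 was the next at 2.0, from 5 fragments, ET replicate 3 had 0.612, and the other 14 libraries had from 0 to 0.372. AD replicate 3, which was second for Crx, had no Bsx fragment.

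Sag and Gngt1 belong to phototransduction. Sag, or S-antigen, is the arrestin that ends signalling by activated photopigment, and its level was 406.4 in AD replicate 6. AD replicate 3 was next with 4.675, and the other 15 libraries had from 0.612 to 2.462, so the ratio was 86.9 to the highest other library. Gngt1, the gamma subunit of rod transducin, had a level of 383.2 in AD replicate 6, 7.68 in AD replicate 3, 3.2 in ET replicate 2 and 1.488 in AD replicate 5. The other 13 libraries had from 0 to 0.375. For both genes the order of the libraries below AD replicate 6 began with AD replicate 3, as it did for Tph1 and Crx.

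AD replicate 3 was the highest of the other libraries for 4 of the 7 genes, for 10 of the 20 further genes described below and for 21 of the 72 genes. ET replicate 2 was the highest for 1, 3 and 11 of them. For 1 of the 4, 5 of the 10 and 8 of the 21 genes led by AD replicate 3, and for 1, 1 and 6 of those led by ET replicate 2, all 16 libraries were at or under the floor, where an order among them was not detectable. Both were labelled as right hippocampi and AD replicate 6 as left, while the other 2 right hippocampi, PF replicate 1 and PF replicate 6, were low, with Tph1 at 0 and 0.66, Crx at 0 and 0.33 and Gngt1 at 0.3095 and 0.33. The 7 genes together took 0.1084% of the fragments in AD replicate 6 (95% Wilson interval 0.1073% to 0.1095%). In AD replicate 3 they took 0.000863% (0.000776% to 0.000959%), in ET replicate 2 0.000402% (0.000339% to 0.000477%) and in AD replicate 5 0.00034% (0.000285% to 0.000405%), while the lowest library, ET replicate 3, had 8.137e-05%.

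The proportions among the 7 genes were compared between AD replicate 6 and the libraries with lower Tph1 counts. Of Gngt1 and Tph1 fragments together, Gngt1 made up 2.87% in AD replicate 6 (95% exact binomial interval 2.70% to 3.05%). In AD replicate 3 it made up 8.39% (5.40% to 12.3%), from 23 Gngt1 and 251 Tph1 fragments, and in ET replicate 2 8.51% (3.75% to 16.1%), from 8 and 86. These intervals, which cover counting error only and not the spread between animals, did not overlap that of AD replicate 6. Each value comes from 1 library, and the difference was not tested. In AD replicate 5 the share was 5.06% (1.397% to 12.5%), from 4 and 75 fragments, and its interval did overlap. For Crx the share was 1.55% in AD replicate 6 (1.42% to 1.69%) and 3.09% in AD replicate 3 (1.34% to 6.00%), while ET replicate 2 was lower at 1.15% (0.0291% to 6.24%) and AD replicate 5 was at 3.85% (0.80% to 10.8%). For Sag it was 3.04% in AD replicate 6 (2.86% to 3.23%), 5.28% in AD replicate 3 (2.92% to 8.71%), 4.44% in ET replicate 2 (1.22% to 10.99%) and 5.06% in AD replicate 5 (1.397% to 12.5%). Sag fragments were also present where Tph1 was nearly absent, with 4 Sag and 2 Tph1 fragments in AD replicate 1 and 7 of each in PF replicate 3. ET replicate 2 and AD replicate 5 held 4 Sag fragments each, no more than those libraries, so their Sag shares cannot be read as proportions among pineal transcripts. The intervals of Crx and Sag overlapped that of AD replicate 6 in all 3 libraries, so a difference was not detectable at this depth.

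Apart from Aanat, the AD group means of the 7 genes were set by AD replicate 6. For Aanat the AD mean was 1.905 with that library and 1.122 without it, both under the floor of 3 counts. The mean Tph1 level of the AD group was 2182 ± 5281 (SD, n = 6), and without AD replicate 6 it was 25.8 ± 33.95 (SD, n = 5), against 7.45 ± 15.1 in the ET group (SD, n = 5) and 0.975 ± 0.939 in the PF group (SD, n = 6). For Asmt, the AD mean of 70.7 ± 141.5 became 12.96 ± 2.41 without AD replicate 6, against 11.8 ± 3.52 in the ET and 12.5 ± 0.805 in the PF group. For Sag, the AD mean of 69.3 ± 165.2 became 1.90 ± 1.58, against 0.903 ± 0.424 and 1.29 ± 0.81. The SD exceeded the mean in the full AD group for each of the 7 genes. Without AD replicate 6, the ranges of the 3 groups overlapped for each of them. For Tph1 the AD and PF ranges then overlapped through AD replicate 1 alone, as the 4 other AD libraries, at 8.075 to 83.8, were above every PF library.

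The comparison of ET with PF did not enter the choice of these genes, and it contains no AD library. Asmt was the 1 gene of the 7 that passed the filter on low counts, and it did not differ between the groups in the quasi-likelihood test of edgeR (log2 fold change of ET over PF -0.09, SE 0.18, Benjamini-Hochberg adjusted p = 0.94). Over all 16088 genes tested, 0.0373% were called higher and 2.14% lower in ET, where a call needs an adjusted p under 0.01 and a log2 fold change beyond 1.5 in either direction. Without the filter, 6 of the 7 genes could be tested, since Crx had no count left after rounding, and edgeR called 0 of them, beside 0.0477% of all genes called higher and 2.0% lower. At an unadjusted p under 0.05 the number was also 0, beside 1073 higher and 1912 lower of all 25146 genes. DESeq2 with no filter and no outlier cutoff called 0 of the 6, of which 4 received an adjusted p, beside 0.0318% higher and 1.82% lower. The edgeR estimates were 2.53 for Tph1 (SE 1.38, adjusted p = 0.54), 2.54 for Gngt1 (adjusted p = 0.60) and 2.54 for Bsx (adjusted p = 0.50), and for all 3 the highest ET library was replicate 2, with levels of 34.4, 3.2 and 2.0. They were -0.36 for Sag (adjusted p = 0.91) and 0.02 for Aanat (adjusted p = 1.0). At these counts a difference between ET and PF in the 7 genes was not detectable, which does not show that the groups were alike.

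The comparisons with the AD group show how the tests treated a gene that is high in 1 library. The AD libraries are the same in both, and the values below describe the genes. For Asmt, the edgeR log2 fold change of AD over ET was 2.53 (SE 1.11, unadjusted p = 0.042, adjusted p = 1) and fell to 0.15 without AD replicate 6 (SE 0.22). That of AD over PF was 2.44 (SE 0.99, unadjusted p = 0.028, adjusted p = 0.21) and fell to 0.05 without that library (SE 0.14, adjusted p = 0.96). All genes called higher were 0.0127% in AD over ET and 0.0314% in AD over PF. The other 6 genes did not pass the filter, which asks for counts in as many libraries as the smaller group holds. With no filter, all 7 were tested and edgeR called 0 of them, against 0.00807% of all genes called higher in AD than in ET and 0.0395% called higher in AD than in PF. The nearest was Tph1 in AD over PF (edgeR adjusted p = 0.043). Of the 72 genes that were at least 5 times the highest other library, 12 passed the filter and 0 were called by edgeR in either comparison.

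An analysis with DESeq2 without the low-count filter and without an outlier cutoff, chosen after the data were seen, gave other counts. DESeq2 still gave some genes with low counts no adjusted p. In AD over PF it called 4 of the 7 genes, Crx, Gngt1, Sag and Tph1, against 0.083% of all genes called higher. In AD over ET it called 1 of the 7, Crx, against 0.0161%, and Aanat received no adjusted p. With AD replicate 6 left out, the same analysis called 0 in AD over ET, where 3 of the 7 received an adjusted p, against 0.00814%, and 1 in AD over PF, Tph1, of 5 with an adjusted p, against 0.0358%. Over all 72 genes, it called 11 in AD over PF and 2 in AD over ET, and without AD replicate 6 it called 1 of the 69 then tested and 0 of 70. The Tph1 estimate was then 4.68 on the log2 scale (SE 1.06, DESeq2 adjusted p = 0.00037). In that fit, 4 AD libraries had Tph1 levels of 8.075 to 83.8 and AD replicate 1 had 0.638, while the PF libraries had at most 2.462. DESeq2 with the filter and its default treatment of single high values tested Asmt alone of the 7. It gave no adjusted p for Asmt in the 2 comparisons with the AD group, and did not call it in ET against PF.

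**Figure D2:**
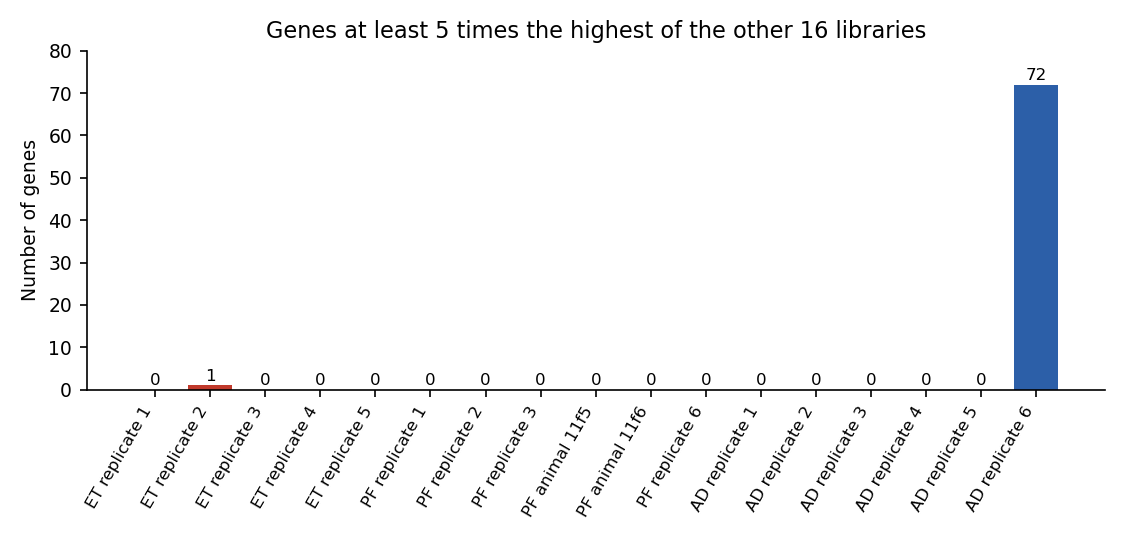
Number of genes (bars, linear axis from 0) in each of the 17 libraries whose TMM-scaled count was at least 5 times that of the highest of the other 16 libraries, among genes with at least 10 counts in the library. AD replicate 6 has 72 such genes, ET replicate 2 has 1 and the other libraries have 0.

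The 72 genes included 66 besides the 6 members. Their ratios to the highest other library, members included, ranged from 5.333 to 206.1 with a median of 15.96, and for 27 genes all other libraries were at or under the floor. Together the 72 genes took 0.2524% of the fragments in AD replicate 6 (95% Wilson interval 0.2507% to 0.2541%) and from 0.00348% to 0.00611% in the other libraries. At a lower limit of 2 times, AD replicate 6 had 122 genes and the other libraries had from 0 to 14. In the downward direction, 1 gene in AD replicate 6 was lower by a factor of 2 or more than the lowest other library, against 0 to 28 in the others.

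The 20 further genes whose pattern was most like that of the 7 were taken by the ratio of AD replicate 6 to the highest of the other 16 libraries. Of these, 9 were on the phototransduction list described below, 2 on the list of transcription factors, 1 on that of melatonin synthesis, 1 on that of the retina and 7 on none. The largest ratio was that of Aipl1, a chaperone needed for the phosphodiesterase of photoreceptors, with a level of 618.2 in AD replicate 6 and at most 2.337 elsewhere. Rbp3, the retinoid-binding protein of the space around photoreceptors, had 1160 and at most 7.68 elsewhere. Pde6g, the inhibitory subunit of that phosphodiesterase, had 3097 and at most 36.4, in ET replicate 2. The catalytic cone subunit Pde6c had 240.8 and at most 2.671.

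Other subunits of transducin, the G protein to which Gngt1 belongs, were high in the same library. Gnb3, a beta subunit, had 1564 and at most 19.7 elsewhere, and Gnat2, the cone alpha subunit, had 787.3 and at most 12.3. Pdc, or phosducin, which binds the beta and gamma subunits, had 147.8 and at most 4.134. The calcium sensors Guca1b (567.8) and Guca1a (117.5), which regulate guanylate cyclase, had at most 4.675 and 2.976 in other libraries. The channel genes Cngb1 (370.7) and Cacna1f (199.7) had at most 10.09 and 3.005.

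Others of the 20 form the outer segment or the matrix around it. Prph2, a structural protein of outer segment discs, had 661.6 and at most 6.344 elsewhere, Impg1 and Impg2, proteoglycans of the matrix, had 283.1 and 371.5 against at most 1.823 and 4.889, and Tulp1 had 311.4 against at most 2.337. The LIM homeobox factors Lhx4 and Isl2 had 369.2 and 122.2, and at most 6.678 and 1.336 elsewhere. Gch1, which makes the cofactor that Tph1 needs, had 328.9 and at most 8.801. The last of the 20 were Lrtm1 (152.8) and Cplx4 (150.5), a complexin of photoreceptor synapses, with at most 1.2 and 2.64 elsewhere. The ratios of the 20 ran from 35.7 for Pdc to 206.1 for Aipl1. Where all other levels were under the floor of 3, as for Aipl1, the ratio is a lower bound. The order and the make-up of the 20 therefore depend on the floor.

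**Figure D3:**
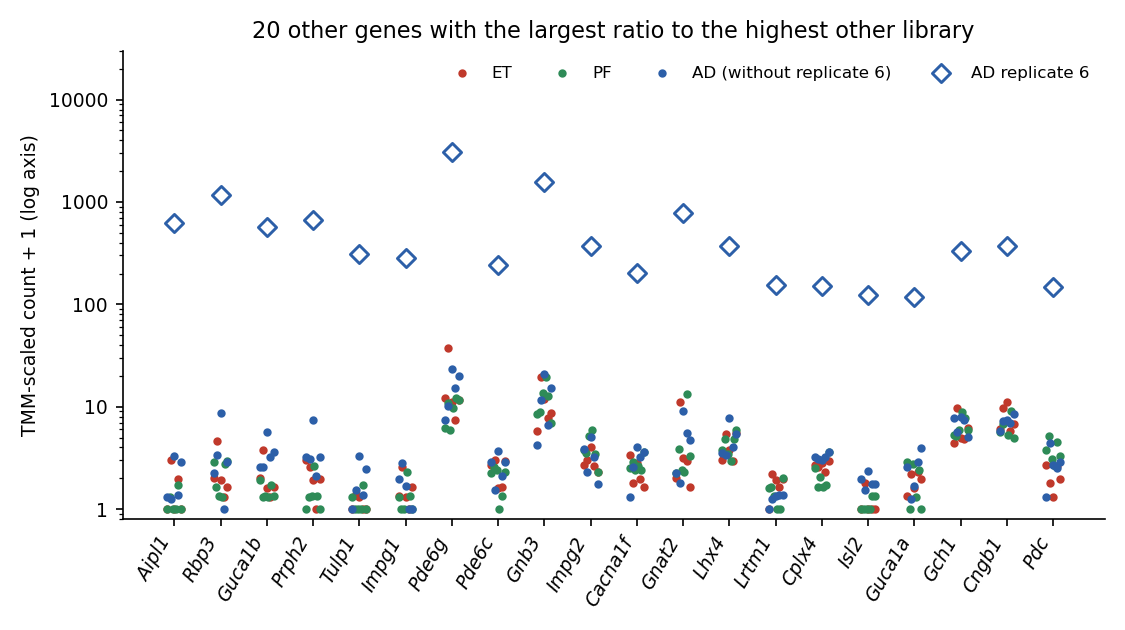
TMM-scaled counts plus 1, on a log axis, of the 20 further genes with the largest ratio of AD replicate 6 (open diamonds) to the highest of the other 16 libraries (circles, red for ET, green for PF and blue for AD), in order of the ratio. Levels in AD replicate 6 run from 117.5 for Guca1a to 3097 for Pde6g, and all circles are at or under 36.4.

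The RefSeq table of promoter windows held 47 of the 66 further genes. TAATCC was present in 11 of them (23.4%), TAATCT in 12 (25.53%) and either in 22 (46.81%), beside 7.109%, 8.457% and 14.85% of all windows. TGACGTCA was present in 1 of the 47 (2.128%). These shares describe genes chosen by their level in AD replicate 6 and were not tested.

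Lists of pathway and marker genes set the 7 genes in context. They were chosen with earlier results of these data known, so the counts below describe the lists and do not test them. Of the 7 further genes of melatonin synthesis and its control, 4 were highest in AD replicate 6 and 1, Gch1, was at least 5 times the highest other library. Ddc, which decarboxylates 5-hydroxytryptophan to serotonin, had 329.3 there and 57.2 to 102.0 elsewhere. The adrenergic receptor Adrb1, through which noradrenaline acts on the gland, had 96.2 against at most 52.3, and Adra1b had 206.3 against at most 200.2. The vesicular transporter Slc18a1 (5.042) and the serotonin transporter Slc6a4 (1.163) were within the range of the others.

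Of the 10 further pineal and photoreceptor transcription factors, 7 were highest in AD replicate 6 and 4 passed the limit of 5 times, namely Lhx4, Isl2, Neurod4 and Pax4. Neurod4, a basic helix-loop-helix factor, had 480.5 and at most 15.6 elsewhere, and Pax4 had 41.9 and at most 7.382. Otx2, which acts upstream of Crx in pineal and photoreceptor development, had 326.5 in AD replicate 6 but was not highest there. It was at 270.0 in ET replicate 2, 354.0 in PF animal 11f6 and 334.8 in AD replicate 4, and from 0.638 to 49.0 in the other 13 libraries.

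Otx2 is also a gene of the choroid plexus, and these 3 libraries were the ones high in Ttr, which encodes transthyretin, the main secreted protein of choroid plexus epithelium. Ttr was 86841 in ET replicate 2, 99236 in PF animal 11f6 and 112356 in AD replicate 4. It was 920.7 in AD replicate 6, below the median of the other 16 libraries, 1353. Over the 14 choroid plexus genes, 0 were highest in AD replicate 6 and 11 were below the median of the others, where 46.89% of all genes with 10 counts were. The other 3 were above it. Aqp1 was at 48.5 (median of the others 41.3). Slc4a5 (256.7, median of the others 45.3) and F5 (183.0, median 55.8) were far below the 3 libraries high in Ttr, where both were at 1937 or more. The summed level of the list in AD replicate 6 was 5184, within the range of the others (2898 to 156887), and 3506 of it was Enpp2. Among the 7 genes, ET replicate 2 was second for Bsx and the next after AD replicate 3 for Tph1 and Gngt1, while AD replicate 4 and PF animal 11f6 had Tph1 at 8.633 and 1.758.

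**Figure D4:**
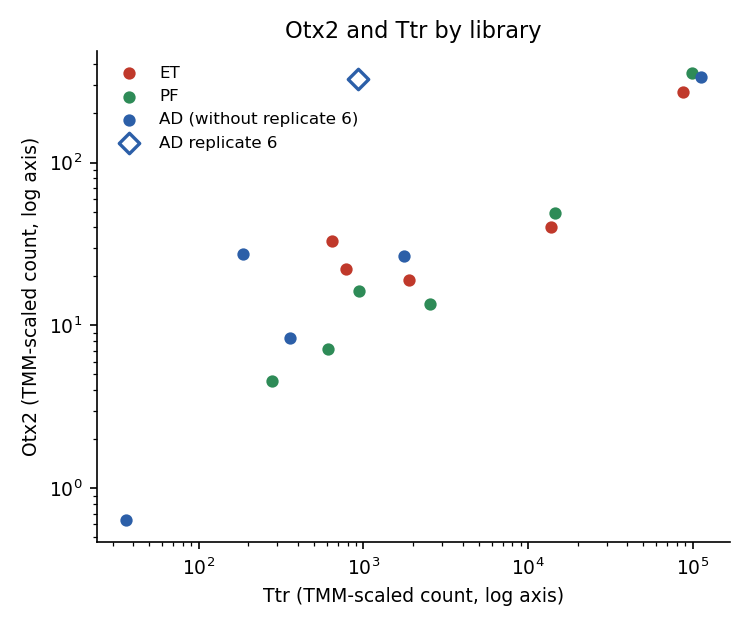
Level of Otx2 (vertical, TMM-scaled count, log axis) against that of Ttr (horizontal, TMM-scaled count, log axis) in 17 libraries, where circles are ET (red), PF (green) and AD (blue) libraries and the open diamond is AD replicate 6. The 3 circles at the upper right have Ttr from 86841 to 112356, and AD replicate 6 has an Otx2 level of 326.5 at a Ttr level of 920.7.

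Of the 18 further genes of phototransduction shared by pineal gland and retina, 17 were highest in AD replicate 6 and 14 were at least 5 times the highest other library. The list was chosen with earlier results of these data known, so these counts are a description. Its median ratio was 32.5 over all 18 genes, of which 15 had at least 10 counts in AD replicate 6. The median over all genes with 10 counts there was 0.832. By level in AD replicate 6, the highest were Pde6g, Gnb3 and Rbp3. Arr3, the cone arrestin related to Sag, was the 1 gene not highest there, with 7.756 and at most 11.2 elsewhere. The summed level of the list was 10486 in AD replicate 6, Sag and Gngt1 included, and 149.3 to 232.0 in the others. Of 10 genes that are raised at night or by adrenergic signals in the pineal gland, 3 were highest in AD replicate 6 and 1 passed the limit of 5 times. These 3 were Esm1 (171.8 and at most 30.8), Fcer1a (23.7 and at most 7.201) and Drd4 (9.308 and at most 2.462). The other 7, Dio2 and Crem among them, were within the range of the other libraries. Medians of these 7 in the other libraries ran from 114.5 for Atp7b to 8129.5 for Nptx1, so a small added amount would not be seen.

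Markers of rods and cones were mixed. The rod transcription factors Nrl (2.327) and Nr2e3 (0.776) were within the range of the other libraries. Rod transducin alpha, Gnat1, was at 8.532, within the others' range of 0.352 to 8.586, and the cone opsin Opn1mw was at 0. The other cone opsin, Opn1sw, which is on the phototransduction list, was at 19.0 and at most 1.238 elsewhere. Of the 12 retina genes, 3 were highest in AD replicate 6, Prph2, Rlbp1 and Pde6a, and 5 were under the floor. Their summed level was 1324 there and 474.8 to 618.5 in the others, and Prph2 alone made up 661.6 of it.

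Tissues beside the pineal gland were checked by their markers in the same way. Of the 9 habenula genes in the table, 2 were highest in AD replicate 6, the nicotinic receptor subunits Chrnb4 (191.6 and at most 8.347) and Chrna3 (62.8 and at most 27.4), while Gpr151 was at 5.042, within the range of the others, and Pou4f1 was at 0. The summed level of the habenula list was 1906, within 1451 to 3335 in the others. Of the 10 thalamic genes, Tnnt1 was highest (48.5 and at most 41.9) and Ntng1 lowest (297.8 and at least 410.5) in AD replicate 6. Of the 4 genes of the subcommissural organ and the 8 of the cerebellum, 0 were highest there, and of the 9 pituitary genes, 1 was, Pomc, at 24.4 and at most 21.4 elsewhere, with Gh1, Prl, Cga, Fshb and Pou1f1 at 0. Of the 9 meningeal genes, 0 were highest and 2, Dcn (176.5) and Lum (63.2), were lowest.

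Genes of hippocampal neurons were present in AD replicate 6 beside the pineal genes. Of the 14 genes of hippocampal neurons, Nrgn was highest there at 16751, Camk2a was at 64318 within the others' range of 49819 to 79092, and Neurod6 was lowest. Spink8 was also lowest, at 1.163, but 10 of the other libraries were at or under the floor of 3 counts, where an order was not detectable. The Neurod6 level was 1958 in AD replicate 6 and 2186 to 3726 in the others. Prox1, the marker of dentate granule cells, was at 245.9, above ET replicate 1 (111.1) and below each of the other 15 libraries (301.8 to 684.0). Of the 14 genes, 11 were below the median of the other libraries, beside the same 46.89% of all genes. The summed level of the list was 94426, within the others' range of 76517 to 114405, and most of it was Camk2a and Nrgn. What part of the levels of the 7 genes comes from tissue outside the hippocampus was not tested.

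**Figure D5:**
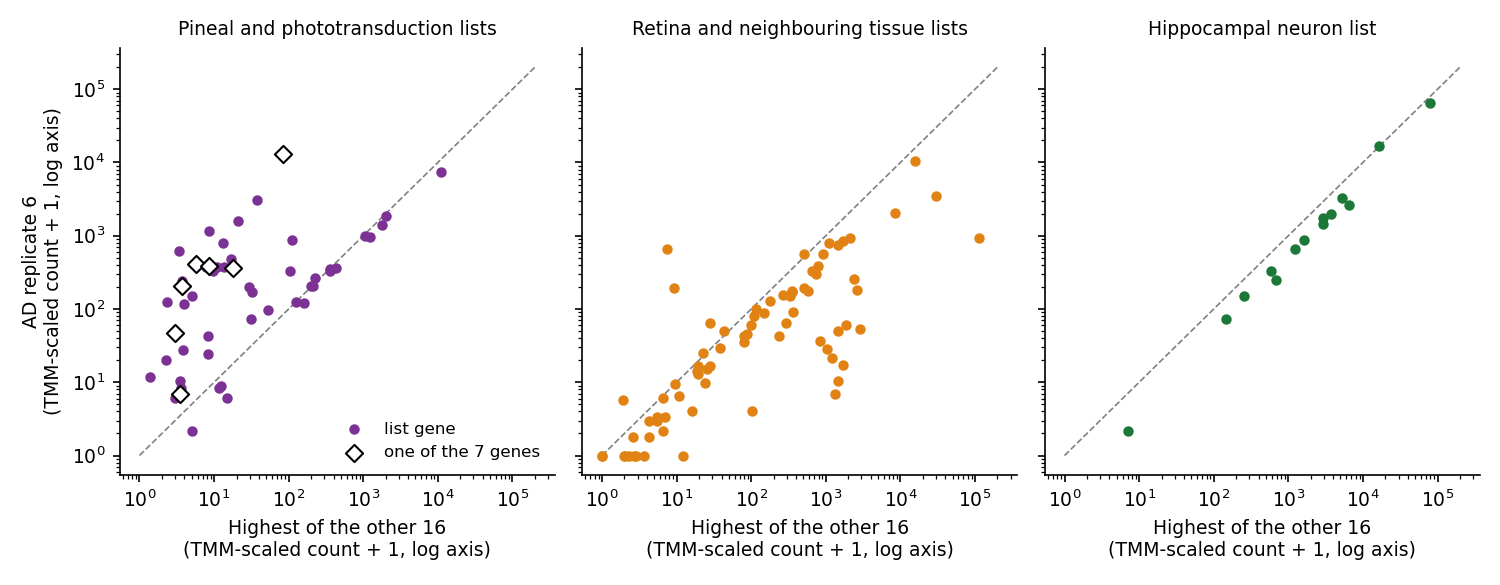
Level in AD replicate 6 (vertical) against the highest level among the other 16 libraries (horizontal), both as TMM-scaled count plus 1 on log axes, for genes of the pineal and phototransduction lists (left, with the 7 genes as open diamonds), of the lists for retina and neighbouring tissues (middle) and of hippocampal neurons (right), where the dashed line marks equal levels. On the left, 17 of the 18 further phototransduction genes are above the line. So are 7 of the 10 further transcription factors, 4 of the 7 further genes of melatonin synthesis and 3 of the 10 night or adrenergic genes. In the middle panel, 3 of 12 retina, 2 of 9 habenula, 1 of 10 thalamic and 1 of 9 pituitary genes are above it, and 0 of the other lists, choroid plexus included. On the right, 1 of the 14 hippocampal genes is.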

How the data were processed

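RNA from 17 hippocampal samples was sequenced as paired-end stranded mRNA libraries with 3 technical replicates each. The authors trimmed and filtered reads with fastp, mapped them to mRatBN7.2 with Bowtie2 2.4.2 and used featureCounts 2.0.1 to assign fragments to exons of 34322 genes, requiring a mapping quality of at least 10 and letting reads count for several features (tool versions from the submitters' processing notes). The strand setting is not given in the sources used here. The values the authors deposited are in form expected counts, that is, counts averaged over the technical replicates without normalization. They were rounded to whole numbers for the tests, and multiplied by 3 for fragment totals and intervals.

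The 2 PF columns named for animals 11f5 and 11f6 could be tied to their group but not to a replicate number. Genes were filtered with filterByExpr, scaled by TMM, and compared between groups in edgeR 4.0.16 (R 4.3.3) by its quasi-likelihood test, with Benjamini-Hochberg adjustment over all genes tested and a threshold of adjusted p below 0.01 and absolute log2 fold change above 1.5. The alternatives were DESeq2 1.42.0, other scalings, no filter, sums of technical replicates, the replicate number as a block, the 14 samples of the study's final analysis (the samples left out were taken from its principal component plot) and leaving out each replicate. DESeq2 with neither an outlier cutoff nor a filter, and fits without the 2 PF animals were added after the data were seen. The 7 genes and the gene lists were chosen with earlier results of these data known. The genes named are the 7, members of the 13 lists by level or floor, the 20 other genes with the largest ratio of AD replicate 6 to the highest other library among genes with at least 10 counts, and sex-linked genes. Dixon's gap ratio was computed for these 7 and 20 genes.

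The scripts were tested on simulated counts. Promoter windows and strands came from a RefSeq table of GRCr8 that held all 7 genes and 47 of the 66 further genes. A second table, of RefSeq genes, matched 27234 symbols, and 0 of the 7 genes overlap another gene there. Python 3.11.15, numpy 2.4.6, pandas 2.3.3, scipy 1.17.1 and matplotlib 3.10.9 were used.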

Additional observations from a re-analysis of the deposited data

Results flagged for a closer look

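A library was set apart from its group where the gap between it and its nearest neighbour, divided by the range of the group, exceeded Dixon's 95% critical value (0.71 for 5 libraries, 0.625 for 6). Chance alone sets apart about 1 in 20 groups of normally distributed values, and the rate for counts near 0 was not tested. Of 81 combinations of a gene and a group, over the 7 genes and the 20 further genes, 38 were set apart, 27 of them by AD replicate 6. As the genes were chosen for their level in that library, its 27 values are a description. They were 0.7849 for Aanat, 0.9816 for Asmt, 0.9936 for Tph1, 0.9869 for Crx, 0.992 for Bsx, 0.9903 for Sag and 0.98 for Gngt1. For the further genes they were 0.9966 for Aipl1, 0.9934 for Rbp3, 0.9945 for Guca1b, 0.9921 for Prph2, 0.9925 for Tulp1, 0.9936 for Impg1, 0.9948 for Pde6g, 0.9911 for Pde6c, 0.9894 for Gnb3, 0.9912 for Impg2, 0.9865 for Cacna1f, 0.9908 for Gnat2, 0.9882 for Lhx4, 0.9975 for Lrtm1, 0.996 for Cplx4, 0.9933 for Isl2, 0.9768 for Guca1a, 0.991 for Gch1, 0.9927 for Cngb1 and 0.9792 for Pdc.

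The other 11 lay in the ET and PF groups. ET replicate 2 was set apart for Tph1 (0.9735, level 34.4), Gngt1 (1.0, level 3.2), Crx (1.0, level 0.4), Isl2 (1.0), Pde6g (0.842), Gnat2 (0.8398), Rbp3 (0.7883) and Guca1b (0.72). In the PF group, animal 11f5 was set apart for Prph2 (0.7842) and Impg1 (0.7304), and animal 11f6 for Gnat2 (0.8532). Of these 11, the levels for Crx, Isl2 and several others are under 3 counts, where the ratio rests on few fragments.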

How the results depend on the processing

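With the replicate number as a block, edgeR called 0 genes in AD against ET (2 without the block). The block fits with PF leave out the 2 PF animals without a number: they called 289 genes in AD against PF and 174 in ET against PF, against 326 and 329 in the same samples without the block (added after the data were seen) and 321 and 350 in all samples. Asmt, the 1 gene of the 7 tested, was called in none of these. Same-numbered samples are different animals. The mean correlation of their deviations was -0.11 over 5 pairs in AD against ET, 0.072 over 4 in AD against PF and 0.194 over 3 in ET against PF. For differently numbered pairs it was 0.033, 0.006 and -0.029. The 3 pairs of ET against PF ranged from -0.089 to 0.621, and whether same-numbered samples pair was not tested. DESeq2 with neither outlier cutoff nor low-count filter called 5 genes and 1 of the 7 in AD against ET, and 498 genes and 4 of the 7 in AD against PF, where 1 of the 7 was called with AD replicate 6 left out. With no filter, edgeR called 526 genes in AD against PF. Leaving out 1 library at a time gave 2 to 3 calls in AD against ET, 323 to 347 in AD against PF and 326 to 362 in ET against PF, and of the 7 genes 1 or 2 were tested and 0 called each time. The count of genes at least 5 times the highest other library was 72 to 74 when 1 other library was left out, and it stayed within 1.5 times of 72 under each scaling and floor tried. The median over the 7 genes of the level in AD replicate 6 over the median of the others was 6.09 on the log2 scale, unchanged when 1 other library was left out, and 7.67 with sums of technical replicates or a floor of 1 count, since for most of the 7 the floor sets the denominator. The cause of the other changes was not tested. For Aanat, Bsx and Crx all other libraries were at or under the floor of 3 counts, so differences among them were not detectable at this depth.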
